A study of Mus musculus with 34 samples.

Results

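The genes that write, maintain and remove cytosine methylation were followed as a set of 9 across 34 RNA-seq libraries of mouse embryonic stem (ES) cells. The set was chosen by name for known roles and holds Dnmt1, Dnmt3a, Dnmt3b, Dnmt3l, Uhrf1, Tet1, Tet2, Tet3 and Tdg. All 9 were among the 48709 genes counted in the Control and Mta123KO libraries and among the 22018 genes counted in the single-mutant libraries, and all 9 passed the filter on low counts in every comparison.

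In mammals a methyl group is added to cytosine, mostly where a guanine follows (CpG). Dnmt3a and Dnmt3b are the de novo methyltransferases, Dnmt3l is a cofactor without catalytic activity that stimulates them, and Dnmt1, brought to newly copied DNA by Uhrf1, passes an existing pattern on to the daughter strand. Tet1, Tet2 and Tet3 oxidise methylcytosine, and Tdg is the glycosylase that cuts out the most oxidised forms so that repair can restore cytosine. Mouse ES cells held in the naive state with inhibitors of Mek and Gsk3 and with LIF are known for low global methylation, low de novo enzyme levels and low Uhrf1 protein, and cells that leave this state are known to gain methylation.

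All libraries came from ES cells of strain 129/Ola. In 16 of them, cells labelled Control or Mta123KO were either kept in both inhibitors with LIF (labelled 2iL) or held for 48 hours in N2B27 medium from which inhibitors and LIF were left out (labelled 48 h), with 4 libraries in each of the 4 groups. The other 18, all labelled 2iL, hold 3 libraries each of Mta1_del/del, Mta2_KO and Mta3_del/del cells and of the parents Mta1_flox/flox, Mta2_WT and Mta3_flox/flox. Mta1, Mta2 and Mta3 encode the MTA subunits of NuRD, a nucleosome remodelling and deacetylase complex. According to the methods of the study, Mta123KO cells were made by removing Mta2 from cells that already lacked Mta1 and carried floxed Mta3, followed by Cre, and the Control is a line derived alongside their parent. The single-null ES cell lines are described as derived from mice. The labels of each of the 4 Control and Mta123KO groups give 2 libraries under each of 2 numbers, and these numbers are read here as lines. Libraries of a line are not independent samples. For the other groups nothing says that libraries came from separate cultures. The p-values thus measure the spread between these libraries, which may be technical.

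Total counts ran from 37855790 to 57602285 per library in the Control and Mta123KO set and from 13105820 to 40613585 in the single-mutant set, so counting error was small for all 9 genes and the spread between libraries set the precision. Mta2 fell from 110 to 128 CPM (counts scaled to a fixed library total) in Control libraries labelled 2iL to between 4.75 and 8.99 CPM in Mta123KO, and Mta3 from 56.6 to 74.7 CPM down to between 14.1 and 23.8 CPM, so these genes follow the genotype labels. Mta1 RNA was lower too, but by a log2 fold change of less than 1 under both labels (-0.67 labelled 48 h, edgeR adjusted p = 0.0063). The culture labels went against the markers. The summed level of 9 naive ES cell markers (Esrrb, Nanog, Klf4, Zfp42 and others) lay between 176 and 263 CPM in Control libraries labelled 2iL and between 3799 and 4201 CPM in those labelled 48 h, against 3310 to 6041 CPM in the 18 single-mutant libraries labelled 2iL. For 8 markers of the early post-implantation epiblast (Fgf5, Otx2, Pou3f1 and others) the sums were 360 to 493 CPM labelled 2iL and 54.8 to 83.1 CPM labelled 48 h. The names of the deposited files of these 16 libraries also give the opposite culture. Every culture is therefore named as labelled. Exchanging the labels would reverse the sign of each culture difference below and swap both genotype comparisons.

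The sequences before the start sites of the 3 genes of de novo methylation are shown because these genes gave the largest differences with culture and because their CpG content differs. They are RefSeq windows of 250 bases that end just before an annotated start, on the plus strand of GRCm38.p6, and capitals mark each CG dinucleotide. The Dnmt3a window, at chr12:3806730-3806979, belongs to the first of 3 RefSeq starts. Dnmt3b has 1 start, with its window at chr2:153649199-153649448. For Dnmt3l the first of 3 starts is shown, at chr10:78042037-78042286.
Dnmt3a: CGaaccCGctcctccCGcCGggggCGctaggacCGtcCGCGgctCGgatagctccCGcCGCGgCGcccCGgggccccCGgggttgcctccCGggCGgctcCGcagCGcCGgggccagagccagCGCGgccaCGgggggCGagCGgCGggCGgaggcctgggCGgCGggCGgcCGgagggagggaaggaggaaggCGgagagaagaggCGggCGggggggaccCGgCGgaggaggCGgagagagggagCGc
Dnmt3b: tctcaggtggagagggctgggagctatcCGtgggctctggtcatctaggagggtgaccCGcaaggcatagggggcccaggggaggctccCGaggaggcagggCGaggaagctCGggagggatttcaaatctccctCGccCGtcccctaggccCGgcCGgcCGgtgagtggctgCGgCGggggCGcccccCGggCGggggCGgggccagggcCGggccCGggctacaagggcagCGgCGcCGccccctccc
Dnmt3l: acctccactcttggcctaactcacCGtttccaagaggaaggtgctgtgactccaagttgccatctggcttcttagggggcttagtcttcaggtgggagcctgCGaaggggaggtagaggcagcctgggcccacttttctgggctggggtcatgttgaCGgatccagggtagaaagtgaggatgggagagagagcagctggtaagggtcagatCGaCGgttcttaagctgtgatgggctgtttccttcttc
The Dnmt3a window holds 38 CG and the Dnmt3b window 21, against a median of 6 over 32851 such windows of annotated starts, and 1.88% and 16.3% of all windows hold at least as many. In the Dnmt3l window 5 CG were counted, and 55.6% of windows hold at least as many. The other starts of Dnmt3l hold 4 and 3. Those of Dnmt3a hold 40 and 15, and 27.3% of windows hold at least 15. Among the rest of the set, the Tet2 window was the richest with 51 CG, reached by 0.067% of windows. The most upstream of 3 Dnmt1 starts held 2 and the others 7 and 26. GGGCGG, searched on both strands, occurred 5 times in the Dnmt3a window shown, 3 times in that of Dnmt3b and 0 times in that of Dnmt3l. Before the other starts, GGGCGG occurred 2 and 0 times for Dnmt3l and 4 and 1 times for Dnmt3a. Of all windows, 32.7% hold it. The Dnmt3a start with 15 CG holds fewer than the Dnmt3b start, and which starts these cells used was not measured. These are descriptions of the letters only.

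Levels were compared between genes per kilobase of annotated exon, merged over all transcripts (16642 bases for Dnmt3a, 5106 for Dnmt3b and 2988 for Dnmt3l). Which transcripts these cells used was not measured, and the order of genes depends on these lengths. In Control libraries labelled 2iL Dnmt3b was highest at 171 ± 41.9 CPM per kilobase (SD, n = 4), followed by Uhrf1 at 114 ± 5.02, Dnmt3l at 77.8 ± 5.32 and Dnmt1 at 46.1 ± 1.65. Tet1 at 32.4 ± 2.03 and Dnmt3a at 29.3 ± 1.61 came next and their ranges overlapped. Tet2 (12.4 ± 1.61), Tdg (6.30 ± 0.202) and Tet3 (1.02 ± 0.0982 CPM per kilobase) stood lowest. In Control libraries labelled 48 h the order changed. Uhrf1 led at 159.6 ± 15.2, then Dnmt1 at 55.9 ± 2.11, Tet1 at 31.1 ± 3.23 and Tet2 at 24.0 ± 1.72, while Dnmt3b stood at 15.0 ± 1.01, Dnmt3l at 2.39 ± 1.02 and Dnmt3a at 1.96 ± 0.315 CPM per kilobase. In Mta123KO labelled 2iL Dnmt3l was the highest of the 9 at 164 ± 27.5 CPM per kilobase, above Uhrf1 at 76.8 ± 3.95. Tet3 was the lowest of the 9 in all 4 groups.

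Dnmt3l was higher and Dnmt1, Uhrf1, Tet1 and Tet2 were lower in Mta123KO than in Control under both culture labels. Among libraries labelled 2iL, 1 of the 9 genes was higher in Mta123KO and 5 were lower (edgeR, adjusted p under 0.05), where 27.1% of the 21651 genes tested were higher and 24.2% lower. Among libraries labelled 48 h, 3 were higher and 4 lower, with 26.6% and 23.4% of 21079 genes as the background. With the further limit of the study, a log2 fold change beyond 1, the counts were 1 higher and 2 lower under the 2iL label, where 13.2% of all genes tested were higher and 7.43% lower. Under the 48 h label they were 3 higher and 1 lower, against 14.1% and 5.93%. Calls were thus common over all genes, and the members' counts are given as a description of these 9 genes. In bulk RNA fewer cells of a type and less RNA per cell cannot be told apart.

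**Figure D1:**
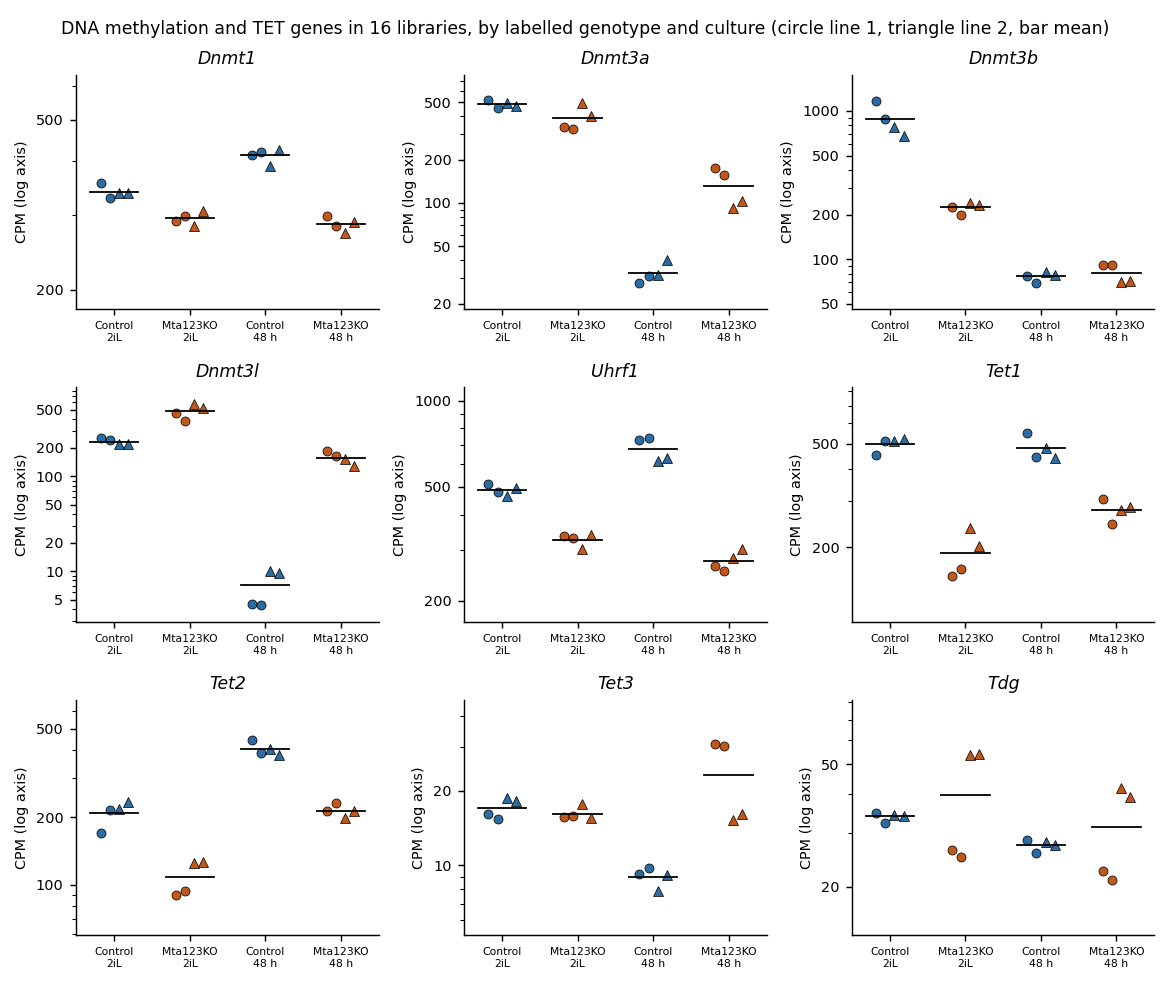
Each panel plots the CPM of 1 gene on a log axis in 4 labelled groups of 4 libraries, with circles for line 1, triangles for line 2 and bars for group means. Dnmt3a and Dnmt3l are lowest in Control labelled 48 h and higher in all 4 Mta123KO libraries with that label, and the 2 Mta123KO lines separate for Tdg.

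Markers of other cell states also differed with genotype. Over all genes tested, 27.1% were higher and 24.2% lower labelled 2iL, and 26.6% and 23.4% labelled 48 h. The summed level of 7 trophoblast markers was 15.9 to 17.4 CPM in Control and 73.6 to 402 CPM in Mta123KO labelled 2iL, with all 7 higher, and 15.4 to 20.4 against 136 to 711 CPM labelled 48 h, with 4 of the 6 tested higher. Cdx2 (edgeR, adjusted p = 0.163) and Eomes (0.134) did not pass labelled 48 h. The sums were mostly keratin, since Krt8 averaged 97.8 CPM and Krt18 95.1 CPM in Mta123KO labelled 2iL, and 203 and 197.6 CPM labelled 48 h, whereas the defining factor Cdx2 lay between 0.303 and 3.92 CPM in Mta123KO labelled 2iL. Naive markers summed to 458 to 581 CPM in Mta123KO labelled 2iL, with 6 of 9 higher than in Control, and to 1954 to 2872 CPM labelled 48 h, with 7 of 9 lower. Of the 8 epiblast markers 6 were lower and 1 higher in Mta123KO labelled 2iL, at summed levels of 81.6 to 230 CPM. Labelled 48 h, 2 of the 7 tested were higher and 1 lower. Of 8 primitive endoderm markers 2 were higher and 2 lower labelled 2iL, and 3 and 2 of the 7 tested labelled 48 h. Of 4 neural markers tested labelled 2iL, 3 were lower, and of 3 tested labelled 48 h, 1 was higher and 1 lower. The part of these differences in the results on the methylation genes was not tested.

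Among the de novo methyltransferases, Dnmt3a (chromosome 12, 3806007 to 3914443, plus strand, ENSMUSG00000020661) was measured at 521, 459, 497 and 476 CPM in the Control libraries labelled 2iL and at 338, 328, 493 and 401 CPM in Mta123KO. These ranges overlapped, and the log2 fold change of -0.32 ± 0.12 (SE) missed the threshold (edgeR, adjusted p = 0.0526). DESeq2 (adjusted p = 0.0369) and edgeR without the filter on low counts (0.0443) or without the libraries numbered 2_1 (0.0111) put it past the threshold. Labelled 48 h, Dnmt3a stood at 27.6, 31.2, 31.8 and 40.0 CPM in Control and at 176, 156, 92.4 and 104 CPM in Mta123KO. Every Mta123KO library lay above every Control library (log2 fold change 2.04 ± 0.22, edgeR adjusted p = 8.55e-05), with line 1 of the mutant above line 2.

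Between culture labels, Dnmt3a was lower in Control labelled 48 h than labelled 2iL by a log2 fold change of -3.91 ± 0.11 (edgeR, adjusted p = 9.91e-10). In Mta123KO the corresponding change was -1.56 ± 0.23 (edgeR, adjusted p = 0.00206). The difference between these changes, the interaction of genotype and culture label, was 2.37 ± 0.26 on the log2 scale (edgeR, adjusted p = 1.28e-05). An antisense gene, Dnmt3aos, overlaps 133 bases of Dnmt3a exons and reached at most 0.0978 CPM in the 16 libraries.

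Dnmt3b (chromosome 2, 153649450 to 153687730, plus strand, ENSMUSG00000027478) was lower in Mta123KO under the 2iL label. It was measured at 1170.4, 879, 779 and 674 CPM in Control and at 225, 198, 240.1 and 231 CPM in Mta123KO. The groups were far apart, with a log2 fold change of -1.97 ± 0.16 (edgeR, adjusted p = 2.18e-05). Labelled 48 h, Dnmt3b stood at 76.8, 69.6, 81.6 and 78.8 CPM in Control and 91.4, 90.9, 70.1 and 71.6 CPM in Mta123KO. Here the ranges overlapped and the difference of 0.10 ± 0.11 on the log2 scale did not pass (edgeR, adjusted p = 0.476). It turned negative with spike-in scaling and without the libraries numbered 1_2.

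The culture difference of Dnmt3b was -3.52 ± 0.15 in Control (edgeR, adjusted p = 1.31e-08) and -1.46 ± 0.11 in Mta123KO (edgeR, adjusted p = 0.000122), and the interaction was 2.07 ± 0.20 (edgeR, adjusted p = 3.56e-06), all as log2 fold changes of libraries labelled 48 h over those labelled 2iL. Dnmt3c, a rodent duplicate of Dnmt3b that methylates transposons in male germ cells, was counted at 8.23 to 185 CPM in these libraries. Its log2 fold changes in Mta123KO were -2.07 ± 0.17 labelled 2iL (edgeR, adjusted p = 2.61e-05) and 0.15 ± 0.14 labelled 48 h (edgeR, adjusted p = 0.412). The duplicates are close in sequence and the handling of reads that align to both is not given in the sources used here, so the split of counts between Dnmt3b and Dnmt3c is uncertain.

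Dnmt3l (chromosome 10, 78041947 to 78063622, plus strand, ENSMUSG00000000730) was higher in Mta123KO under both labels. Labelled 2iL, it was measured at 251, 241, 219 and 219 CPM in Control and 468, 385, 576 and 527 CPM in Mta123KO, without overlap (log2 fold change 1.07 ± 0.12, edgeR adjusted p = 0.000105). Labelled 48 h, the Control libraries held 4.57, 4.42, 10.1 and 9.48 CPM and the Mta123KO libraries 185, 164, 151 and 127 CPM. This was the largest genotype difference of the set, with a log2 fold change of 4.48 ± 0.31 (edgeR, adjusted p = 7.92e-06). Within Control labelled 48 h, both libraries of line 2 lay above both of line 1.

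Dnmt3l also gave the largest culture difference of the set in Control, with a log2 fold change of -5.04 ± 0.26 for libraries labelled 48 h (edgeR, adjusted p = 4.89e-08). The change in Mta123KO was -1.64 ± 0.15 (edgeR, adjusted p = 0.000263) and the interaction 3.42 ± 0.32 (edgeR, adjusted p = 2.93e-06). Aire, which runs on the opposite strand and shares 67 exon bases with Dnmt3l, was counted at 11.6 to 17.4 CPM in Control labelled 2iL, 6.77 to 12.3 CPM in Mta123KO labelled 2iL, 0.622 to 1.06 CPM in Control labelled 48 h and 2.17 to 3.37 CPM in Mta123KO labelled 48 h. Labelled 2iL, Aire and Dnmt3l thus differed in opposite directions between genotypes (Aire log2 fold change -0.59 ± 0.22, edgeR adjusted p = 0.0454). Labelled 48 h they differed in the same direction (Aire 1.88 ± 0.23, edgeR adjusted p = 0.000191), as they did between culture labels in Control (Aire -4.17 ± 0.21, edgeR adjusted p = 3.53e-08). Whether the counting used strand is not given in the sources used here.

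**Figure D2:**
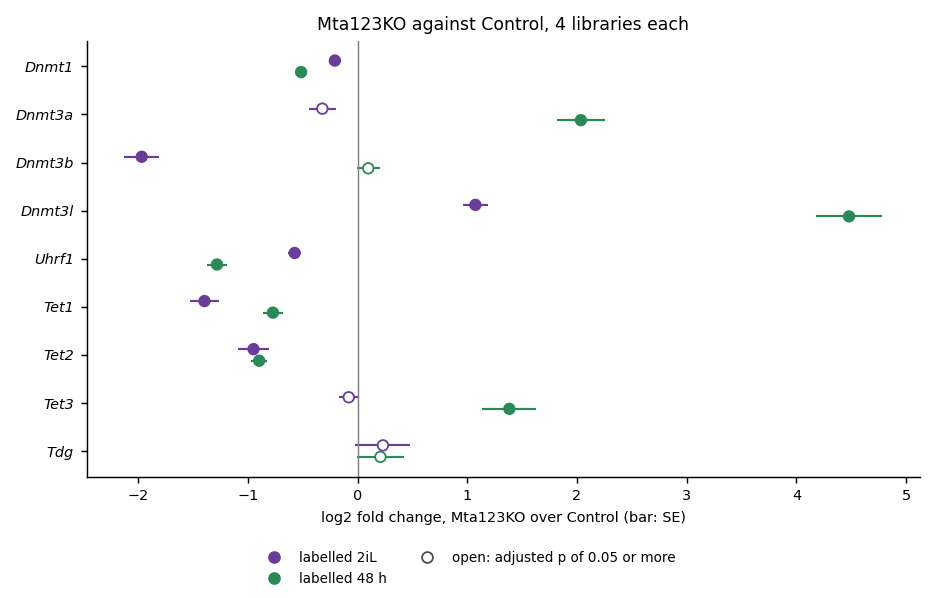
Log2 fold changes of Mta123KO over Control with SE are plotted for the 9 genes, for libraries labelled 2iL and labelled 48 h, with open points where the adjusted p was 0.05 or more. Dnmt3l lies right of 0 and Uhrf1, Tet1 and Tet2 left of 0 under both labels, while Dnmt3a, Dnmt3b and Tet3 pass the threshold under 1 label only.

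Of the maintenance genes, Dnmt1 (chromosome 9, 20907209 to 20959888, minus strand, ENSMUSG00000004099) varied little. Labelled 2iL, it stood at 357, 328, 338 and 337 CPM in Control and 289, 298, 283 and 305 CPM in Mta123KO. The groups did not overlap, but the log2 fold change was small at -0.21 ± 0.05 (edgeR, adjusted p = 0.00946). The edgeR call was lost with the libraries of each line summed (adjusted p = 0.185), with spike-in scaling (0.2102) and without the libraries numbered 1_1 (0.0794) or 2_1 (0.0663). Labelled 48 h, values of 415, 421, 390.3 and 425 CPM in Control faced 298, 283, 271 and 289 CPM in Mta123KO. That difference was -0.52 ± 0.06 (edgeR, adjusted p = 0.000117) and remained past the threshold in all alternatives.

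Dnmt1 was slightly higher in Control labelled 48 h than labelled 2iL, by 0.28 ± 0.05 on the log2 scale (edgeR, adjusted p = 0.000563). In Mta123KO the difference of -0.04 ± 0.06 did not pass (edgeR, adjusted p = 0.643). The interaction was -0.30 ± 0.07 (edgeR, adjusted p = 0.00624), and it was lost with the libraries of each line summed (adjusted p = 0.226), with spike-in scaling (0.0975) and without the libraries numbered 1_2 (0.0817) or 2_2 (0.0720).

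Uhrf1 (chromosome 17, 56303321 to 56323486, plus strand, ENSMUSG00000001228), the partner that finds hemimethylated CpG, differed more than Dnmt1. Labelled 2iL, it was measured at 512, 479, 463 and 496 CPM in Control and 336, 331, 302 and 339.5 CPM in Mta123KO. Labelled 48 h, Control held 729.6, 741, 616 and 633 CPM and Mta123KO 264, 254, 283 and 303 CPM. The genotypes did not overlap under either label, with log2 fold changes of -0.57 ± 0.06 labelled 2iL (edgeR, adjusted p = 8.75e-05) and -1.28 ± 0.09 labelled 48 h (edgeR, adjusted p = 7.73e-06).

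Uhrf1 was higher in Control labelled 48 h than labelled 2iL, by 0.48 ± 0.07 on the log2 scale (edgeR, adjusted p = 0.000135). In Mta123KO it was lower, by -0.24 ± 0.08 (edgeR, adjusted p = 0.0487), although the ranges overlapped and the call was lost when libraries of any 1 number were left out. The interaction was -0.70 ± 0.10 (edgeR, adjusted p = 0.000199). In edgeR it no longer passed with the libraries of each line summed (adjusted p = 0.0800).

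Of the dioxygenases, Tet1 (chromosome 10, 62804570 to 62908996, minus strand, ENSMUSG00000047146) had the highest level per kilobase of the TET genes in all 4 groups. Labelled 2iL, it stood at 453, 512, 514 and 521 CPM in Control and 155, 165, 237 and 203 CPM in Mta123KO. Labelled 48 h, the values were 551, 447, 484 and 443 CPM in Control and 305, 245, 277 and 286 CPM in Mta123KO. Both genotype differences were clear of overlap, at -1.40 ± 0.13 (edgeR, adjusted p = 4.74e-05) and -0.77 ± 0.09 on the log2 scale (edgeR, adjusted p = 0.000161). Between culture labels Tet1 differed by -0.06 ± 0.08 in Control (edgeR, adjusted p = 0.524), with overlapping ranges, and by 0.55 ± 0.14 in Mta123KO (edgeR, adjusted p = 0.0218). Without the libraries numbered 1_1, whose Control library labelled 2iL was the lowest of its group, the Control difference was -0.18 (edgeR, adjusted p = 0.0296) and the Mta123KO difference 0.41 (edgeR, adjusted p = 0.121). The Mta123KO call was also lost with spike-in scaling (0.0697) and without 1_2 (0.0671) or 2_2 (0.0905). The interaction of 0.63 ± 0.16 (edgeR, adjusted p = 0.0110) was lost with the libraries of each line summed (adjusted p = 0.182), with spike-in scaling (0.345) and without the libraries numbered 1_2 (0.0636) or 2_2 (0.0785).

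Tet2 (chromosome 3, 133463679 to 133545139, minus strand, ENSMUSG00000040943) gave an interaction that did not pass the threshold. Labelled 2iL, it was measured at 171, 216, 219 and 234 CPM in Control and 89.8, 93.8, 126 and 126 CPM in Mta123KO. Labelled 48 h, it was measured at 446, 390.3, 405 and 380.0 CPM in Control and 214, 232, 198 and 215 CPM in Mta123KO. The mutant was lower by similar amounts, -0.95 ± 0.14 (edgeR, adjusted p = 0.00058) and -0.90 ± 0.07 (edgeR, adjusted p = 2.15e-05). Libraries labelled 48 h were higher by 0.94 ± 0.09 in Control (edgeR, adjusted p = 7.56e-06) and 0.98 ± 0.13 in Mta123KO (edgeR, adjusted p = 0.00114). Their difference, the interaction, was 0.06 ± 0.16 (edgeR, adjusted p = 0.841).

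Tet3 (chromosome 6, 83362373 to 83459084, minus strand, ENSMUSG00000034832), best known as the oocyte enzyme that acts on the paternal genome after fertilisation, was the scarcest gene of the set. Labelled 2iL, it stood at 16.05, 15.4, 18.8 and 18.2 CPM in Control and 15.6, 15.9, 17.6 and 15.5 CPM in Mta123KO, with overlapping ranges (log2 fold change -0.08 ± 0.09, edgeR adjusted p = 0.489). Labelled 48 h, it stood at 9.22, 9.73, 7.88 and 9.10 CPM in Control and 30.9, 30.3, 15.3 and 16.1 CPM in Mta123KO. All mutant libraries were higher (log2 fold change 1.38 ± 0.25, edgeR adjusted p = 0.00150), line 1 more than line 2, and with the libraries of each line summed the adjusted p was 0.0543. Tet3 was lower in Control labelled 48 h than labelled 2iL (-0.93 ± 0.10, edgeR adjusted p = 1.15e-05), whereas in Mta123KO the difference of 0.52 ± 0.24 did not pass (edgeR, adjusted p = 0.165). The interaction was 1.47 ± 0.27 (edgeR, adjusted p = 0.00118), and with the libraries of each line summed it no longer passed.

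Tdg (chromosome 10, 82629828 to 82650799, plus strand, ENSMUSG00000034674) separated the Mta123KO lines from each other. Labelled 2iL, it was measured at 34.8, 32.3, 34.4 and 34.03 CPM in Control, and at 26.4 and 25.0 CPM in line 1 and 53.7 and 53.9 CPM in line 2 of Mta123KO. Labelled 48 h, Control held 28.4, 25.7, 28.0 and 27.3 CPM, and Mta123KO 22.5 and 21.0 CPM in line 1 and 42.0 and 39.3 CPM in line 2. Line 1 of the mutant lay below and line 2 above every Control library under both labels, and neither genotype difference passed (log2 fold change 0.23 ± 0.25, edgeR adjusted p = 0.472, and 0.21 ± 0.22, edgeR adjusted p = 0.452). Tdg was lower labelled 48 h in Control (-0.31 ± 0.05, edgeR adjusted p = 0.000433), and this call was lost with spike-in scaling (log2 fold change -0.13, adjusted p = 0.585) and when all 16 libraries shared 1 fit (adjusted p = 0.304). In Mta123KO the difference of -0.35 ± 0.34 did not pass (edgeR, adjusted p = 0.509), but with the line and library number as a replicate block it did (-0.33, adjusted p = 0.00407). A pseudogene named after Tdg, Tdg-ps, was counted at 3.88 to 9.02 CPM, and Glt8d2, which shares 367 exon bases with Tdg on the other strand, at 0.493 to 1.69 CPM.

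Across the set, 3 genes were higher with the 48 h label in Control and 5 were lower (edgeR, adjusted p under 0.05), where 29.5% of the 21240 genes tested were higher and 29.0% lower. The same comparison in Mta123KO gave 2 higher and 4 lower, against 12.4% and 10.0% of 21505 genes. With the libraries of each line summed, which leaves 2 samples a group, no member and no other gene passed in Mta123KO, where 3568 genes had an unadjusted p under 0.05. The interaction was past the threshold for 7 of the 9 genes, 5 with a positive and 2 with a negative sign, against 12.5% and 10.6% of 22973 genes. For Dnmt3a, Dnmt3b and Dnmt3l a positive sign meant a smaller fall with the 48 h label in Mta123KO than in Control. Dnmt1 and Uhrf1 had negative signs. For Dnmt3a, Dnmt3b and Dnmt3l the interaction stayed past the threshold in every alternative. Cell state markers differed in this way too. Of the 8 epiblast markers, all lower with the 48 h label in Control, 4 had a positive interaction past the threshold and 0 a negative one. Of the 9 naive markers, all higher with that label in Control, 0 had a positive and 7 a negative one. Their part in the interaction of the members was not tested. The 4 comparisons share groups, so their values are not independent of each other.

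**Figure D3:**
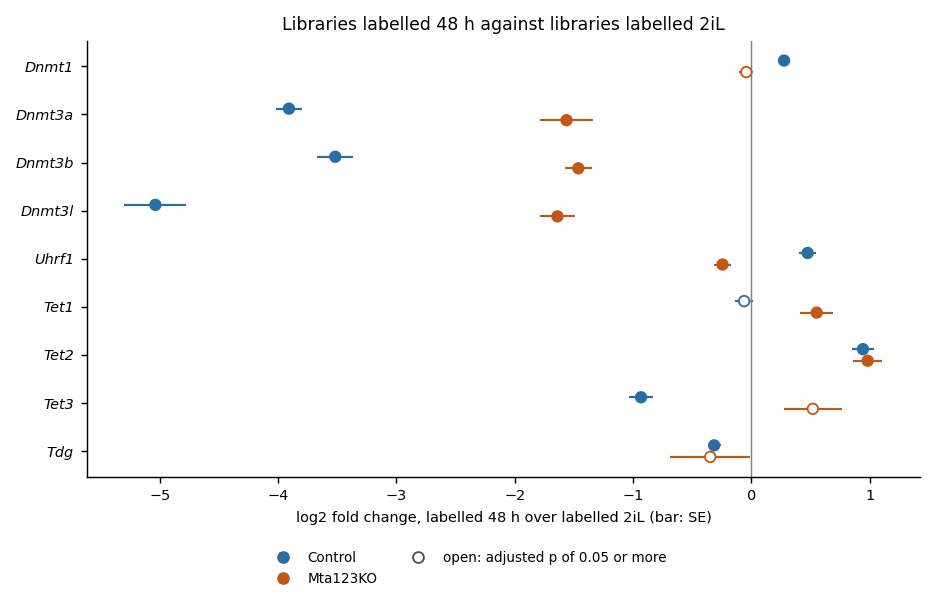
Log2 fold changes of libraries labelled 48 h over libraries labelled 2iL with SE are plotted in Control and in Mta123KO, with open points where the adjusted p was 0.05 or more. Dnmt3a, Dnmt3b and Dnmt3l lie between -3.52 and -5.04 in Control and between -1.46 and -1.64 in Mta123KO, and both points of Tet2 lie near 1.

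Single mutants were each compared with their own parent. Mta1 stood at 39.2 to 48.0 CPM in Mta1_del/del and 69.4 to 103 CPM in the floxed parent. Mta2 fell to between 9.21 and 11.7 CPM from 225 to 249 CPM, and Mta3 to between 9.53 and 13.0 CPM from 61.5 to 71.1 CPM.

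In Mta2_KO, 2 of the 9 genes were higher and 3 lower (edgeR, adjusted p under 0.05), where 23.5% of 15602 genes were higher and 24.3% lower. Tet2 fell most, from 1086, 1105 and 1008 CPM in Mta2_WT to 474, 451 and 457 CPM (log2 fold change -1.20 ± 0.05, edgeR adjusted p = 1.93e-07), and was the one member past a log2 fold change of 1, a limit that 5.31% of all genes passed upwards and 6.04% downwards. Tdg rose from 48.4, 50.1 and 43.0 CPM to 68.0, 65.1 and 66.8 CPM (0.51 ± 0.06, edgeR adjusted p = 7.76e-05). Neither group pair overlapped, and both calls remained in every alternative.

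Dnmt3b was measured at 102, 107 and 96.2 CPM in Mta2_WT and 70.5, 77.2 and 72.8 CPM in Mta2_KO (-0.46 ± 0.05, edgeR adjusted p = 3.93e-05). Dnmt3l stood at 15.7, 18.6 and 15.98 CPM against 23.7, 27.5 and 24.7 CPM (0.60 ± 0.08, edgeR adjusted p = 0.000307), and Uhrf1 at 608, 674 and 564 CPM against 423, 452 and 441 CPM (-0.48 ± 0.06, edgeR adjusted p = 0.000244). These pairs of groups did not overlap either, but when all 18 libraries shared 1 fit the adjusted p was 0.4902 for Dnmt3b, 0.556 for Dnmt3l and 0.0916 for Uhrf1. Dnmt1 at 530.1, 524 and 477 against 462, 469 and 454 CPM just missed the threshold (-0.14 ± 0.05, edgeR adjusted p = 0.0577), and DESeq2 called it (adjusted p = 0.0208).

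The remaining members did not pass in Mta2_KO. Dnmt3a was measured at 67.1, 78.6 and 56.2 CPM in Mta2_WT and 71.3, 71.0 and 73.6 CPM in Mta2_KO. Tet1 at 491, 619 and 422 against 617, 528 and 605 CPM and Tet3 at 7.02, 8.71 and 5.18 against 9.16, 6.497 and 8.05 CPM likewise overlapped. Without the libraries numbered 2, Dnmt3a (edgeR, adjusted p = 0.0471), Tet1 (0.00417) and Tet3 (0.0446) were all higher in Mta2_KO, which brought the higher members to 5. Naive markers summed to 4700 to 5175 CPM in Mta2_WT and 3426 to 3634 CPM in Mta2_KO, with 7 of 9 lower, and trophoblast markers to 52.6 to 54.8 against 14.6 to 18.6 CPM. Their part in these differences was not tested.

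In Mta3_del/del, 2 members were higher and none lower, against 8.32% and 7.84% of 15522 genes. Tdg stood at 47.1, 40.7 and 47.3 CPM in the floxed parent and 62.2, 57.3 and 66.2 CPM in the mutant (log2 fold change 0.42 ± 0.10, edgeR adjusted p = 0.0338). Dnmt3b stood at 54.8, 70.8 and 72.1 CPM against 172, 74.1 and 142 CPM (0.92 ± 0.26, edgeR adjusted p = 0.0470). Neither pair overlapped, yet mutant library 2 lay only just above the parent for Dnmt3b. Both calls were lost without the libraries numbered 1 (edgeR, adjusted p = 0.225 for Tdg and 0.315 for Dnmt3b) or 3 (0.162 and 0.175), settings in which 2 genes of all those tested passed. Dnmt3b was also lost when all 18 libraries shared 1 fit (0.0782).

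Of the members that did not pass in Mta3_del/del, Uhrf1 was measured at 516, 602 and 609 CPM in the parent and 820.1, 529.5 and 987 CPM in the mutant (0.39 ± 0.20, edgeR adjusted p = 0.194), and without the libraries numbered 2 it passed (0.64, adjusted p = 0.0226). Tet3 at 16.2, 19.6 and 15.8 against 14.5, 15.3 and 9.23 CPM had groups that did not overlap (-0.45 ± 0.22, edgeR adjusted p = 0.167). For Dnmt1, Dnmt3a, Dnmt3l, Tet1 and Tet2 the log2 fold changes lay between -0.31 and 0.19 with overlapping ranges. The floxed parent carried fibroblast markers at 12.3 to 59.8 CPM in sum and the mutant at 5.67 to 6.79 CPM, with 2 of the 4 markers tested lower. Their part in these differences was not tested.

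In Mta1_del/del no member passed, and no gene of the 14561 tested did (0% in either direction), with 50 genes at an unadjusted p under 0.05 and 1 gene called by DESeq2. With the replicate block, in which libraries of the same number were taken as pairs, no gene passed either and 468 had an unadjusted p under 0.05. The Mta1 difference itself was -0.97 ± 0.18 (edgeR, unadjusted p = 0.000897). Among the members the log2 fold changes ran from -0.24 ± 0.37 for Tet2 to 0.38 ± 0.47 for Dnmt3b. Dnmt3b was measured at 99.3, 72.3 and 82.8 CPM in the floxed parent and 209.8, 56.0 and 70.5 CPM in the mutant, so 1 mutant library stood far above the rest. Dnmt3l at 6.42, 19.9 and 21.2 against 28.4, 3.62 and 23.3 CPM and Tet2 at 331, 918 and 498 against 441, 465 and 596 CPM also spread widely within groups. Dnmt1 held closer, at 751, 553 and 535 against 698, 611 and 546 CPM. The SEs ran from 0.17 for Uhrf1 to 0.73 for Dnmt3l without the block and from 0.093 for Tet1 to 0.87 for Dnmt3l with it.

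**Figure D4:**
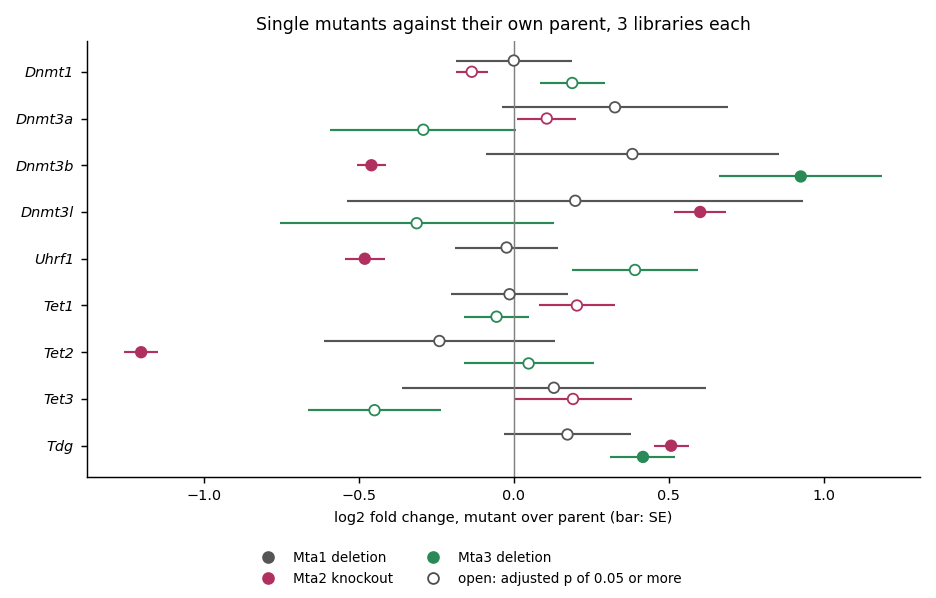
Log2 fold changes of each single mutant over its own parent with SE are plotted for the 9 genes, with open points where the adjusted p was 0.05 or more. Filled points are Dnmt3b, Dnmt3l, Uhrf1, Tet2 and Tdg for Mta2_KO and Dnmt3b and Tdg for Mta3_del/del, and the SE bars of Mta1_del/del are wide.

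Other genes of the pathway were read as lists in Mta123KO against Control, where 27.1% of all genes tested were higher and 24.2% lower labelled 2iL, and 26.6% and 23.4% labelled 48 h. Of 11 partners of maintenance, 1 was higher and 6 lower under the 2iL label, with a median log2 fold change of -0.41 against 0.01 over all genes, and none higher and 7 lower under the 48 h label, with a median of -0.43. Dppa3, which keeps Uhrf1 from chromatin, was the one higher, at 3.30 and 9.97 CPM in Control and Mta123KO labelled 2iL (1.60 ± 0.22, edgeR adjusted p = 0.000335). Cdca7, which brings the remodeller Hells to chromatin, stood at 176 and 95.8 CPM (-0.88 ± 0.15, edgeR adjusted p = 0.00134). Labelled 48 h, Pcna, the replication clamp, was lower by -0.75 ± 0.08 (edgeR, adjusted p = 7.11e-05).

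Of 8 genes that control de novo methylation, 2 were higher and 3 lower under either label, close to the 27.1% higher and above the 24.2% lower over all genes labelled 2iL (26.6% and 23.4% labelled 48 h). Kdm1b, the demethylase that prepares oocyte chromatin for methylation, was higher under both, by 0.98 ± 0.09 labelled 2iL (edgeR, adjusted p = 3.5e-05) and 1.14 ± 0.14 labelled 48 h (edgeR, adjusted p = 0.00022). Prdm14, a repressor of Dnmt3 genes in naive cells, stood at 52.6 CPM in Control and 16.8 CPM in Mta123KO labelled 48 h (-1.63 ± 0.28, edgeR adjusted p = 0.00127). The 7 readers of methylated CpG gave 5 higher and 1 lower labelled 2iL, and 4 higher and 1 lower labelled 48 h, with medians of 0.47 and 0.59, against 27.1% higher and 24.2% lower over all genes labelled 2iL and 26.6% and 23.4% labelled 48 h. Mbd2, whose protein takes the place of Mbd3 in one form of NuRD, was higher by 1.16 ± 0.12 labelled 2iL (edgeR, adjusted p = 7.92e-05) and 1.03 ± 0.13 labelled 48 h (edgeR, adjusted p = 0.000251).

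Among 18 partners of oxidation and removal, 4 were higher and 7 lower labelled 2iL, and of the 17 tested labelled 48 h, 3 were higher and 6 lower. The share of higher genes was below that of all genes under both labels (27.1% and 26.6%), and the share of lower genes above it (24.2% and 23.4%). Idh1, which makes the oxoglutarate that TET enzymes use, was higher under both labels (1.34 ± 0.16, edgeR adjusted p = 0.00018, and 1.07 ± 0.24, edgeR adjusted p = 0.00549). Smug1, a uracil glycosylase, was lower under both (-1.10 ± 0.10, edgeR adjusted p = 3.91e-05, and -1.42 ± 0.10, edgeR adjusted p = 7.54e-06). Of 10 genes of methyl donor supply, 1 was higher and 4 lower labelled 2iL, and 1 higher and 6 lower labelled 48 h, beside the same 24.2% and 23.4% lower over all genes. Tdh, the threonine dehydrogenase of naive mouse ES cells, stood at 442 CPM in Control and 103 CPM in Mta123KO labelled 48 h (-2.08 ± 0.16, edgeR adjusted p = 1.56e-05).

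A last list held 10 germline genes known to be kept silent by promoter methylation in somatic cells. In Mta123KO 3 were higher and 1 lower labelled 2iL, with a median of 0.25, and 5 higher and 1 lower labelled 48 h, with a median of 1.32. Labelled 2iL, the share of higher genes was close to the 27.1% of all genes, and labelled 48 h it was above 26.6%. Tex101 averaged 0.451 CPM in Control and 9.36 CPM in Mta123KO labelled 2iL, and 0.540 and 13.7 CPM labelled 48 h (4.37 ± 0.40, edgeR adjusted p = 4.36e-05, and 4.67 ± 0.17, edgeR adjusted p = 6.48e-07). Taf7l was also higher under both labels, whereas Mael was lower labelled 2iL (-2.01 ± 0.36, edgeR adjusted p = 0.00161) and Dazl lower labelled 48 h (-1.22 ± 0.35, edgeR adjusted p = 0.0168). No DNA methylation was measured in these libraries.

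For each member the 3 protein-coding genes with the most similar pattern were sought by Pearson correlation of log2 CPM over the 16 Control and Mta123KO libraries among 13396 genes. The points share groups and lines, so the values are descriptions. Dnmt3b was most like Dnmt3c (r = 0.997), followed by Ccno and Pak3. Dnmt3l was most like Tmem59l (0.992), Mapk4 and Cacna1b, and Dnmt3a most like Ccdc194 (0.989), Dnajb5 and Cfap300. Cep164 stood among the nearest genes of both Dnmt1 (0.976) and Uhrf1 (0.972), with Brca1 and Ly75 for Dnmt1 and Haus1 and Ankrd24 for Uhrf1. Nearest to Tet1 were Epn2 (0.973), Zfp110 and Jtb, to Tet2 Thtpa (0.9801), Vat1 and Arl15, to Tet3 Slc38a1 (0.953), Arhgap27 and Zfyve16, and to Tdg Orc2 (0.985), BC055324 and Wdr75.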

How the data were processed

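Libraries were made with directional kits. As described by the authors and the submitters' processing notes, reads were trimmed with Trim Galore, aligned to GRCm38/mm10 with TopHat2 and counted per gene with featureCounts on Ensembl annotation, and the deposited values are raw read counts, 1 library per file. The strand setting of the counting and the handling of reads with several alignments are not given in the sources used here. The 16 paired-end Control and Mta123KO libraries also hold 92 spike-in RNAs (0.584 to 1.00% of counts), which were left out of library totals and tests. The 18 single-mutant libraries are single-end and were fitted separately, and the sets were never tested against each other.

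From these counts, low genes were removed with filterByExpr, libraries were scaled by TMM, and each comparison was fitted on its own groups with the quasi-likelihood F test of edgeR 4.0.16 (R 4.3.3), two-sided, with Benjamini-Hochberg adjustment over all genes tested and a threshold of 0.05. The SE of a log2 fold change is its size divided by the square root of F. The interaction was fitted over all 16 libraries. CPM are counts scaled to a fixed effective library total, per kilobase of merged GENCODE vM21 exons where genes were compared. Groups and replicate numbers came from the labels, and the 9 members, the lists and the tests were chosen with earlier results of these data known. Named were all members, at most 2 higher and 2 lower genes of a list by size of log2 fold change with a mean of at least 1 CPM, of which examples are printed, and the 3 genes most alike in pattern. RefSeq promoter windows matched 9 of 9 members.

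Libraries with the same number are read as the same line in the culture comparisons. Their deviations from group means correlated (r of 0.269 to 0.334 in Control and 0.553 to 0.585 in Mta123KO). The correlation cannot tell a shared line from a shared library number, so it does not show pairing within a line. Deviations of the Mta1 libraries also correlated by number (r of at least 0.437). The replicate block took these numbers as pairs, although the sources used here give no such pairing. In the other comparisons some correlations were negative. Libraries of 1 line differed by more than sampling noise in each of 8 pairs (chi-square per degree of freedom of 6.85 to 21.5) and were kept as separate samples. Pairs from different lines of a group gave 19.3 to 38.5 in Control, where pairs of 1 line reached 20.8, and 96.7 to 125 in Mta123KO. Exceeding sampling noise does not make the libraries of a line independent, and the fits do not account for this. Alternatives were DESeq2 1.42.0, RLE scaling, no filter, a replicate block, 1 fit for a whole set, scaling by the spike-ins, sums over the libraries of each line, and leaving out each replicate number from both groups. The main edgeR fit of each comparison was tested on simulated counts with known fold changes, and the alternatives and descriptions were not.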

Additional observations from a re-analysis of the deposited data

Results flagged for a closer look

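Tet1 in Control labelled 2iL was flagged for 1 library: replicate 1_1 held 453 CPM, below the other 3 at 512 to 521 CPM. It was the only one of 36 groups of a member tested in this way, and chance alone is expected to flag about 1 group in 20.

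The change with culture label differed between Mta123KO and Control for 7 members by the interaction test of edgeR. The differences, Mta123KO minus Control on the log2 scale, were 3.42 for Dnmt3l, 2.37 for Dnmt3a, 2.07 for Dnmt3b, 1.47 for Tet3, 0.63 for Tet1, -0.30 for Dnmt1 and -0.70 for Uhrf1. Exchanging the culture labels would turn each sign. The 2 Mta123KO lines differed for Tet3 labelled 48 h, at means of 30.6 and 15.7 CPM, and for Dnmt3a, at 333 and 447 CPM labelled 2iL and 166 and 98.2 CPM labelled 48 h.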

How the results depend on the processing

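Of 72 tests of members, 41 passed the threshold, 23 of these passed in every alternative, and none of the 41 changed sign. With the libraries of each line summed, 0 members were higher and 0 lower by culture label in Mta123KO, and the interaction kept 3 positive and 0 negative signs. Spike-in scaling, which moved the median log2 fold change of all genes by -0.18 for Mta123KO labelled 48 h, 0.18 for culture in Control and -0.22 for the interaction, left 1 member higher by culture label in Mta123KO and 1 negative interaction, and gave -0.094 for Dnmt3b in Mta123KO labelled 48 h, 0.13 for Tet1 by culture label in Control and -0.16 for the interaction of Tet2. A single fit over all 18 libraries left 1 member higher and 1 lower in Mta2_KO and 1 higher in Mta3_del/del, where Tet1 was at 0.00015. Dnmt1 in Mta1_del/del, near 0 throughout, was 0.00070 with DESeq2 and 0.00072 with RLE scaling, 0.014 without the filter and 0.0058 in the single fit. The causes of these changes were not tested.

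With the replicate block, Dnmt1 in Mta1_del/del was 0.0099, Dnmt3b no longer passed in Mta3_del/del (adjusted p = 0.0791 in edgeR), which left 1 member higher, and Dnmt3a passed in Mta123KO labelled 2iL (adjusted p = 0.0478). In both of these comparisons the libraries share only a number. A block of line and number within genotype, chosen after the data were seen, gave 0.0084 for the interaction of Tdg. Beside these and Tdg by culture label in Mta123KO, the block changed no call of a member.

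With the libraries of any 1 replicate number left out of both groups, there were 1 to 2 members higher by culture label in Mta123KO, 1 to 2 negative interactions, 2 to 5 members higher in Mta2_KO and 0 to 3 in Mta3_del/del. Log2 fold changes that changed sign, all below the threshold, ranged from -0.0096 to 0.19 for Dnmt3b in Mta123KO labelled 48 h, from -0.076 to 0.15 for Tet2 and from -0.037 to 0.037 for Tdg in the interaction, and from -0.018 to 0.24 for Dnmt3a in Mta2_KO. In Mta1_del/del the ranges were -0.059 to 0.082 for Dnmt1, -0.089 to 0.67 for Dnmt3a, -0.30 to 0.61 for Dnmt3b, -0.61 to 0.90 for Dnmt3l, -0.073 to 0.050 for Uhrf1, -0.043 to 0.023 for Tet1 and -0.49 to 0.32 for Tet2. In Mta3_del/del they were -0.73 to 0.13 for Dnmt3a, -0.72 to 0.62 for Dnmt3l, -0.15 to 0.041 for Tet1 and -0.11 to 0.16 for Tet2.

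Over all genes, calls higher and lower moved from 5867 and 5248 to 2253 and 1505 (lines summed) for Mta123KO labelled 2iL, from 5608 and 4940 to 2568 and 1517 (lines summed) or 3442 and 4346 (spike-ins) labelled 48 h, and to 5993 and 3664 (spike-ins) by culture label in Control. By culture label in Mta123KO they moved from 2662 and 2155 to 4882 and 4262 (replicate block), 3774 and 3285 (1 fit of all 16 libraries) or 1478 and 1317 (spike-ins), and to 1474 to 1810 higher and 1044 to 1316 lower without 1 replicate number. For the interaction they moved from 2879 and 2427 to 406 and 304 (lines summed), 1383 and 1981 (spike-ins), 4520 and 4093 (block within genotype), 1652 and 1323 without the libraries numbered 1_1 or 1786 and 1491 without 1_2. Mta2_KO went from 3671 and 3789 to 1252 and 1370 in the single fit. Mta3_del/del went from 1291 and 1217 to 1752 and 1047 in the single fit, 1893 and 1691 with DESeq2, 0 and 2 without the libraries numbered 1 and 1 and 1 without those numbered 3. The spread between libraries, not depth, limits all 9 genes.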
